A study of Mus musculus with 30 samples.

Results

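The perilipins are a family of 5 mouse genes, Plin1 to Plin5, that encode coat proteins of the lipid droplet. They are described here through 28 of the 257149 chromatin accessibility peaks measured in the ventral hippocampus. A peak was assigned to the family where its deposited region (GRCm38) overlapped the RefSeq body of a member extended by 10 kb on both sides, and a peak shared by Plin4 and Plin5 was counted once. The family was chosen by a known result, the change of a wide peak over Plin4 after acute restraint. Every acute change of a perilipin peak below is therefore a description. Acute calls and counts of p-values given for these peaks rest on the values behind the choice and are no independent test. The tests of these peaks that carry weight concern the history of the mice, the interaction of history with acute restraint, and sex.

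Nuclei from 1 ventral hippocampus per mouse were profiled by bulk ATAC-seq, in which a transposase inserts adapters into open chromatin. Mice had been gently handled or had been restrained in a tube on each of 10 days, and all of them were then housed singly for 24 h. Tissue came from undisturbed home-cage animals (0 min; 8 handled, 8 chronically restrained) or from animals 45 min into a single acute restraint (7 handled, 7 chronically restrained). Both sexes and all 4 batches were present in every group, and the labels used here give no strain or age.

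A lipid droplet is a core of triglyceride and sterol ester under a phospholipid monolayer, and perilipins sit on that surface and control which lipases reach the core. Plin1 coats the large droplets of adipocytes and gates hormone-driven lipolysis there, Plin2 and Plin3 are found in most cell types, Plin4 is known from adipocytes and muscle, and Plin5 from tissues with high fatty acid oxidation, where it links droplets to mitochondria. In brain, droplets are known mainly from glia and ependymal cells and accumulate there with age and inflammation. Plin4 is also known as a transcript that rises in rodent brain after glucocorticoid exposure; no RNA was measured in these libraries.

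All 5 genes lie on the minus strand. Plin4 (chr17:56100587-56109948) and Plin5 (chr17:56111597-56117606) are neighbours, and Plin3 (chr17:56278962-56290511) lies on the same chromosome, while Plin1 (chr7:79721164-79732904) and Plin2 (chr4:86626910-86670217) lie elsewhere. The 250 bases before the start site of 4 members are shown because the results below turn on the peaks that cover these starts. The sequences are from RefSeq (GRCm38.p6), written 5′ to 3′ on the strand of the gene, at chr17:56109783-56110032 (Plin4), chr17:56117549-56117798 (Plin5), chr17:56290512-56290761 (Plin3) and chr4:86670060-86670309 (Plin2), all on the minus strand. Capitals mark matches to the searched motifs, a CCAAT box (CCAAT, or ATTGG when read on the other strand), a TATA-like element (TATAA) and a PPAR response element core (AGGTCA, or TGACCT on the other strand).
Plin4: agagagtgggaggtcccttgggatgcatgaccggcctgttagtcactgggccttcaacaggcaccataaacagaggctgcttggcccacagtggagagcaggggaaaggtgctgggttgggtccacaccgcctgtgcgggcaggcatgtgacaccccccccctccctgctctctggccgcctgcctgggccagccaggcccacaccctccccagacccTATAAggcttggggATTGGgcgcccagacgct
Plin5: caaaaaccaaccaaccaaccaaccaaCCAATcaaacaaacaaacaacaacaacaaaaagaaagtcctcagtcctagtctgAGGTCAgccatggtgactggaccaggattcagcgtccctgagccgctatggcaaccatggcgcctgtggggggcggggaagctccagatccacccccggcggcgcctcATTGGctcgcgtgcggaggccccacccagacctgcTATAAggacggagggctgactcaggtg
Plin3: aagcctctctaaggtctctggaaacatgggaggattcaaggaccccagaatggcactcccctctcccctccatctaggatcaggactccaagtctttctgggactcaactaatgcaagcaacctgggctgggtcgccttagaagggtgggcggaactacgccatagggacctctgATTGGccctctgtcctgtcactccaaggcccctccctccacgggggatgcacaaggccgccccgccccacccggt
Plin2: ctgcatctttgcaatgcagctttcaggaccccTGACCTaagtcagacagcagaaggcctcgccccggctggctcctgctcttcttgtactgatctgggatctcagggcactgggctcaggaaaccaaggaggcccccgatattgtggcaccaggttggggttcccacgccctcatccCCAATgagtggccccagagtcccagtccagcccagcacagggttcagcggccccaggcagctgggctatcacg

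In Plin4 and Plin5 the TATAA match lay just before the start, at bases −32 to −28 and −27 to −23 counted from the start site. Of 32851 RefSeq start entries, 3.17% had TATAA on the gene's strand beginning between bases −35 and −20, a position chosen after these sequences had been read, and 22.8% had it on either strand anywhere in the 250 bases. Plin2, Plin3, Plin4 and Plin5 each held a CCAAT box, at −73 to −69 in Plin2 and, on the other strand, at −75 to −71 in Plin3, −18 to −14 in Plin4 and −62 to −58 in Plin5, which had a second one at −224 to −220; 33.8% of all entries held this motif. The PPAR core stood at −218 to −213 in Plin2 and at −170 to −165 in Plin5, against 14% of all entries. A glucocorticoid response element was searched on both strands as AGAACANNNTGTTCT (0.00913% of entries), as the looser GNACANNNTGTNC (0.387%) and as its single arm AGAACA (16.1%), and none of these letters was found in the 250 bases of any member. The same held for the repeat AGGTCANAGGTCA (0.0335%), the cyclic AMP response element core TGACG (17.8%) and the E-box CACGTG (6.02%), and the Plin1 window matched no searched motif. The guanine and cytosine content was 54% in Plin1, 61.6% in Plin2, 60% in Plin3, 65.2% in Plin4 and 58% in Plin5, against a median of 52.4% over all entries. A match is a stretch of letters and not a measured binding site, and most of each peak lay outside these windows.

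Of the 28 peaks, 12 were near Plin1, 2 near Plin2, 9 near Plin3 and 5 near Plin4, of which 2 were also the peaks of Plin5. A peak of 22569 bp (chr17:56095359-56117927) covered 100% of both Plin4 and Plin5 and reached into Hdgfl2, which encodes a chromatin-reading protein. Its counts cannot be divided between these 3 genes. The region just upstream of Plin5 was covered by a second wide peak (chr17:56118198-56128874, 10677 bp) over Lrg1, a secreted glycoprotein gene, and Sema6b, a semaphorin gene, 271 bp from the first. Plin3 was covered over 97.05% of its body, and a peak of 2337 bp (chr17:56289963-56292299) lay over its start. Plin2 had a peak of 321 bp at its start (chr4:86669839-86670159), and peaks covered 0.74% of its body. Plin1 had peaks over 64.33% of its body but none over its start, and the nearest (chr7:79731501-79732135) began 641 bp downstream of it.

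**Figure D1:**
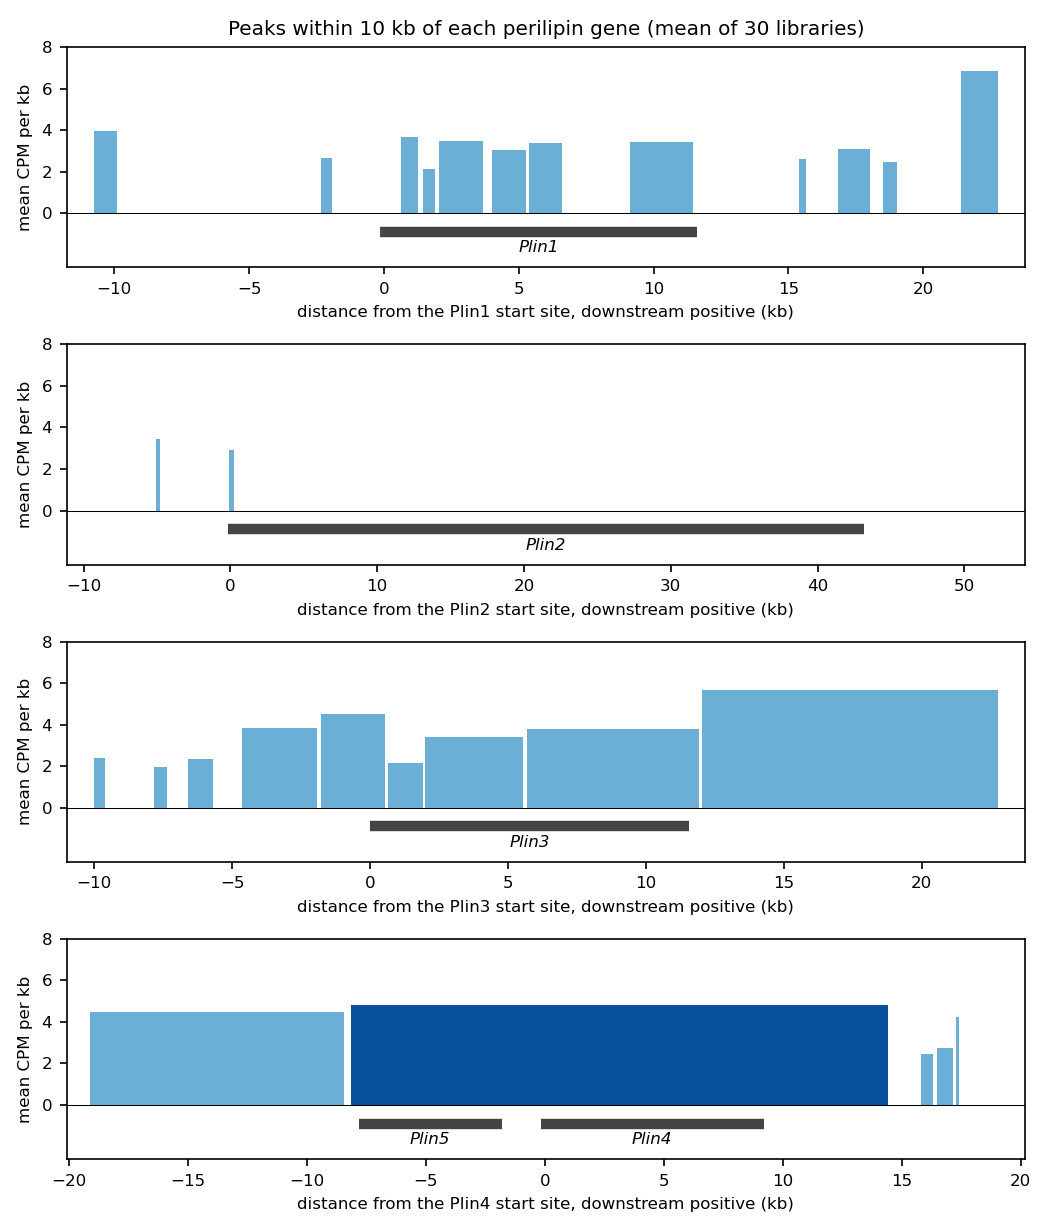
Perilipin peaks drawn to scale along each gene, with distance from the start site in kb on the x axis and the mean level of 30 libraries in CPM per kb on the y axis. The dark bar is the 22569 bp peak over Plin4 and Plin5, the grey bars are gene bodies, and Plin2 has only 2 narrow peaks.

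The libraries held between 26104576 and 55294838 counts. A typical peak spanned 561 bp (median) with 58.97 counts, and the wide Plin4 and Plin5 peak rested on a mean of 4316.87 counts where the Plin2 peaks rested on means of 36.73 and 35.77. Start peaks of neuronal markers (Rbfox3, Slc17a7, Gad1, Neurod2) summed to between 317.6 and 420.4 CPM in every library, and those of the astrocyte markers Gfap and Slc1a3 to between 59.6 and 70.4 CPM. Of the adipocyte markers Adipoq and Lep had no start peak and Cidec had one of 2.45 to 4.32 CPM, and of the choroid plexus markers Kcnj13 and Otx2 had no start peak. No marker start peak passed in the acute comparison, beside 0.116% of all peaks. Their log2 changes ran from −0.25, among oligodendrocyte markers (Mog, Mobp), to 0.25, among endothelial and mural markers (Cldn5, Flt1). For the neuronal markers named above they ran from −0.00084 to 0.05, and for the astrocyte markers from 0.03 to 0.09. The hepatocyte marker Apoa2 had a start peak of 48.5 to 66.8 CPM although Alb had none, and Gja1 (astrocytes) and P2ry12 (microglia) had none either. Other markers, such as Snap25 (neurons) and Aqp4 (astrocytes), had no start entry among those used here and could not be looked up. Animal 45 (handled, female, 0 min) had the library with the most counts in the top 1% of peaks by coverage (21.5% of its total, lowest 20.0%) and the lowest scaling factor (0.875), and the changes of the wide Plin4 and Plin5 peak are given with and without it.

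Levels are TMM-scaled CPM, divided by peak width where peaks are compared. Over 30 libraries the wide Plin4 and Plin5 peak had 4.83 ± 0.60 CPM per kb (SD), the Plin3 start peak 4.50 ± 0.49 and the peak upstream of Plin5 4.46 ± 0.33, and these 3 did not differ beyond their spread. The peak nearest the Plin1 start had 3.66 ± 0.84 CPM per kb and the Plin2 start peak 2.91 ± 0.67. The median of all peaks was 2.74 CPM per kb and the 95th percentile 5.31. The highest perilipin peak by this scale, at 6.84 ± 0.87 CPM per kb (chr7:79709988-79711379), lay in Kif7, a kinesin gene of hedgehog signalling in the Plin1 window. The next, at 5.68 ± 0.25 (chr17:56267762-56278463), lay over Ticam1, an adaptor of Toll-like receptors in the Plin3 window. The lowest was 1.96 ± 0.49 CPM per kb, near Arrdc5 in the Plin3 window.

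The wide peak over Plin4 and Plin5 had higher values at 45 min than at 0 min in both histories. In handled mice it had 81.4 CPM in the lowest library, 99.0 at the median and 109.2 in the highest at 0 min, and 108.1, 122.2 and 138.1 CPM at 45 min. The ranges overlapped slightly, with 6 of 7 libraries at 45 min above all those at 0 min and 7 of 8 at 0 min below all those at 45 min. In chronically restrained mice the lowest, median and highest values were 87.7, 98.9 and 111.5 CPM at 0 min and 109.0, 122.1 and 130.1 CPM at 45 min. There 5 of 7 libraries at 45 min lay above all those at 0 min and 7 of 8 at 0 min below all those at 45 min. The means rose from 98.0 ± 9.2 to 120.9 ± 9.7 CPM in handled mice and were 100.3 ± 7.5 and 119.8 ± 8.1 CPM in chronically restrained mice (SD). The ranges of 0 and 45 min overlapped in each history at all 28 perilipin peaks; over all peaks 0.0288% lay wholly above and 0.0183% wholly below in handled mice, and 0.0245% and 0.021% in chronically restrained mice.

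The log2 change of the wide peak from 0 to 45 min was 0.27 ± 0.035 (SE) averaged over both histories, a 1.20-fold change with a 95% interval of 1.15 to 1.26. It was 0.29 ± 0.049 in handled mice and 0.24 ± 0.049 in chronically restrained mice. By edgeR's quasi-likelihood test, adjusted over all peaks at a threshold of 0.05, this peak was called as risen in the average and in handled mice and was not called in chronically restrained mice, where DESeq2 did call it. Since the family was chosen by this change, the calls only restate the choice. Within batches 1 to 4 the log2 change was 0.20 ± 0.074, 0.32 ± 0.045, 0.24 ± 0.060 and 0.32 ± 0.20 (SE), the last with 2 libraries at 45 min. In batch 1 the highest library at 0 min (111.5 CPM) exceeded the lowest at 45 min (108.1 CPM), and in batches 2, 3 and 4 the times were separated. It was 0.28 ± 0.049 in females and 0.26 ± 0.049 in males. Without animal 45, the lowest library at this peak, the averaged change was 0.26 and that in handled mice 0.27, and edgeR then also called the peak in chronically restrained mice, at 0.24. In handled mice the peak was not called when batch 1, batch 2 or batch 3 was left out, with changes of 0.29, 0.31 and 0.30, nor in females alone (0.32) or males alone (0.26). For the fits within 1 history that leave libraries out, the share of all peaks called is not given here. In bulk tissue a change in the share of nuclei of a type and a change in accessibility per nucleus cannot be told apart.

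**Figure D2:**
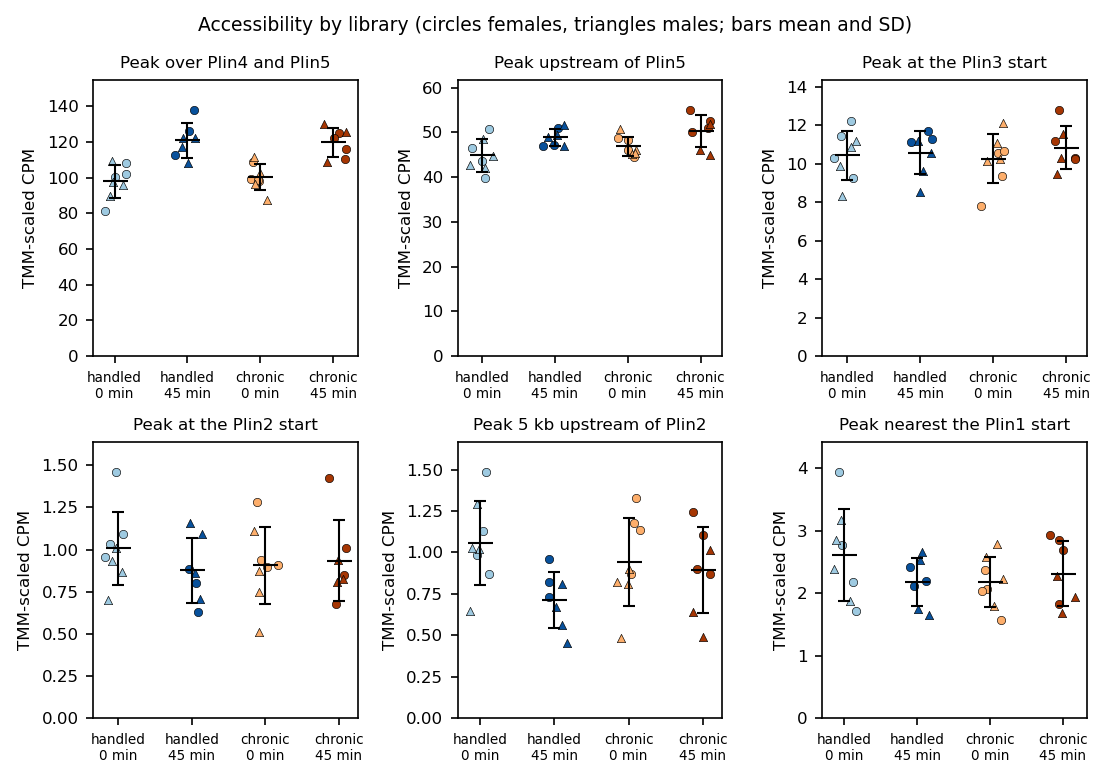
TMM-scaled CPM (y axis) of 6 perilipin peaks in each library, by group, with circles for females, triangles for males, and bars for the mean and SD. At the Plin4 and Plin5 peak the libraries at 45 min run from 108.1 to 138.1 CPM and those at 0 min from 81.4 to 111.5 CPM. In the other 5 panels the ranges of 0 and 45 min overlap as well. At the peak upstream of Plin5, libraries at 0 min below all those at 45 min are 6 of 8 in handled and 1 of 8 in chronically restrained mice.

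The other perilipin peaks had no called acute change. Averaged over histories, 1 of the 28 peaks was called, as risen, and none as fallen, against 0.116% of all 257143 tested peaks called and 0.0731% called as risen. In handled mice the same single peak was called, against 0.0109% of all peaks. In chronically restrained mice none was called by edgeR, against 0.00272% of all peaks, and 1 by DESeq2, for which no share over all peaks is given here. The share reflects how the family was chosen. The averaged change was positive at 18 of the 28 peaks with a median of 0.028, where 48.98% of all peaks were positive with a median of −0.0025. Unadjusted p-values under 0.05 (edgeR) numbered 4 of 28 in the average, 3 in handled and 1 in chronically restrained mice, against 7.17%, 5.52% and 4.73% of all peaks. In the average, 2 were the peaks shared by Plin4 and Plin5, 1 was near Plin1 (change −0.23) and 1 near Plin2 (−0.29). Each count includes the wide peak by which the family was chosen, so these counts are a description as well.

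The wide peak upstream of Plin5, over Lrg1 and Sema6b, had a smaller change in the same direction. In handled mice its lowest, median and highest values were 39.7, 44.2 and 50.8 CPM at 0 min and 47.0, 49.1 and 51.7 CPM at 45 min. In chronically restrained mice they were 44.6, 46.03 and 50.7 CPM at 0 min and 45.0, 51.02 and 55.1 CPM at 45 min, so the times overlapped in both. Its averaged log2 change was 0.11 ± 0.036 (SE) and was not called, and it was called, at 0.12, when the share of each library's total held by the top 1% of peaks was added as a covariate. The 3 remaining Plin4 peaks lay in Hdgfl2, with averaged changes from −0.10 to 0.16, none of them called.

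The Plin2 peaks had averaged changes below 0 and few counts. The peak at chr4:86674831-86675093, upstream of the gene, had 0.649 CPM in the lowest library, 1.03 at the median and 1.49 in the highest in handled mice at 0 min and 0.456, 0.730 and 0.958 CPM at 45 min. In chronically restrained mice it had 0.485, 0.884 and 1.33 CPM at 0 min and 0.492, 0.902 and 1.24 CPM at 45 min, and the times overlapped in both histories. Its log2 change was −0.50 ± 0.16 (SE) in handled mice, −0.09 ± 0.16 in chronically restrained mice and −0.29 ± 0.11 averaged, none of them called. The Plin2 start peak had means of 1.01 ± 0.22 and 0.878 ± 0.19 CPM in handled mice and 0.909 ± 0.23 and 0.933 ± 0.24 CPM in chronically restrained mice (SD), with an averaged change of −0.05 ± 0.12.

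Plin3 and Plin1 had changes on both sides of 0. At the Plin3 start peak the lowest, median and highest values were 8.31, 10.6 and 12.2 CPM at 0 min and 8.55, 11.1 and 11.7 CPM at 45 min in handled mice, and 7.81, 10.4 and 12.1 CPM and 9.47, 10.3 and 12.8 CPM in chronically restrained mice. The groups overlapped almost wholly, and the averaged change was 0.05 ± 0.055 (SE). The 9 Plin3 peaks had averaged changes from −0.08 to 0.10, 7 of them positive. The 10702 bp peak over Ticam1, which had the most counts of these, had means of 60.8 ± 3.0 and 61.3 ± 2.4 CPM in handled mice, 59.2 ± 2.5 and 62.2 ± 2.0 CPM in chronically restrained mice (SD), with a change of 0.04 ± 0.033. The 12 Plin1 peaks had averaged changes from −0.23 to 0.11, 7 of them positive. The peak nearest the Plin1 start had means of 2.61 ± 0.73 and 2.18 ± 0.39 CPM in handled mice and 2.18 ± 0.40 and 2.31 ± 0.51 CPM in chronically restrained mice (SD), with a change of −0.08 ± 0.099. A peak inside Plin1 (chr7:79730865-79731344) had the lowest change, −0.23 ± 0.11, with means of 1.116 ± 0.12 and 0.987 ± 0.20 CPM in handled mice and 1.07 ± 0.23 and 0.897 ± 0.19 CPM in chronically restrained mice. The Kif7 peak had means between 9.25 and 9.89 CPM in the 4 groups and a change of 0.01 ± 0.057.

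Just inside the 10 kb limit of the windows lay a Kif7 peak (9785 bp from Plin1, 9.52 CPM, averaged acute change 0.01), a Pex11a peak (9790 bp from Plin1, 3.36 CPM, 0.11) and an Arrdc5 peak (9598 bp from Plin3, 0.965 CPM, 0.03). Just outside it lay peaks 10754 bp from Plin1 (0.855 CPM, 0.05), 10204 bp from Plin4 (2.14 CPM, −0.14) and 11456 bp from Plin5 (1.51 CPM, −0.08). Near Plin3 the next peak outside, 11474 bp away, was wide and had 118.5 CPM and a change of 0.03.

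The history of the mice was tested at every perilipin peak, and no change was called. At the wide Plin4 and Plin5 peak, chronically restrained mice were 0.04 higher than handled mice at 0 min on the log2 scale (95% interval −0.06 to 0.13, adjusted p = 0.997, edgeR). At 45 min the difference was −0.02 (−0.12 to 0.08, adjusted p = 1.00), and averaged over both times it was 0.01 (−0.06 to 0.08, adjusted p = 0.985). The interaction, the acute change in chronically restrained mice minus that in handled mice, was −0.05 (−0.19 to 0.08, unadjusted p = 0.446, adjusted p = 1), and its interval on the fold scale ran from 0.877 to 1.06 times the fold change of handled mice. Without animal 45 the interaction was −0.03, and the history difference was 0.0086 at 0 min, −0.02 at 45 min and −0.0049 averaged, so that the last was on the other side of 0. At the peak upstream of Plin5 the averaged history difference was 0.05 (−0.02 to 0.12, adjusted p = 0.920) and the interaction −0.03 (−0.17 to 0.11, adjusted p = 1).

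Over the 28 peaks, edgeR called 0 at 0 min, 0 at 45 min, 0 averaged over times and 0 for the interaction. DESeq2 also called 0 in each, and its share over all peaks is not given here. The background by edgeR was the same, with 0% of all 257143 peaks called at 0 min, 0% at 45 min, 0% averaged and 0% for the interaction. Unadjusted p-values under 0.05 numbered 1 at 0 min, 0 at 45 min, 0 averaged and 1 for the interaction, against 4.60%, 3.78%, 5.44% and 3.03% of all peaks. The 2 peaks concerned are named here after their values were seen. A Plin4-window peak in Hdgfl2 (chr17:56093445-56093949) had 1.32 ± 0.47 CPM in handled and 1.03 ± 0.26 CPM in chronically restrained mice at 0 min (SD; log2 difference −0.33 ± 0.16 SE, unadjusted p = 0.0357, adjusted p = 0.997, edgeR). A Plin1-window peak in Kif7 (chr7:79714748-79715949) averaged 3.52 ± 0.46 CPM at 0 min and 3.96 ± 0.31 at 45 min with handling, and 3.87 ± 0.35 and 3.59 ± 0.52 CPM in chronically restrained mice (interaction −0.29 ± 0.13 SE, unadjusted p = 0.0361, adjusted p = 1, edgeR). Neither passed. The widest intervals belonged to the peaks with few counts, and at the Plin2 start peak the averaged history difference was −0.03 with an interval of −0.27 to 0.21 (adjusted p = 0.987).

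**Figure D3:**
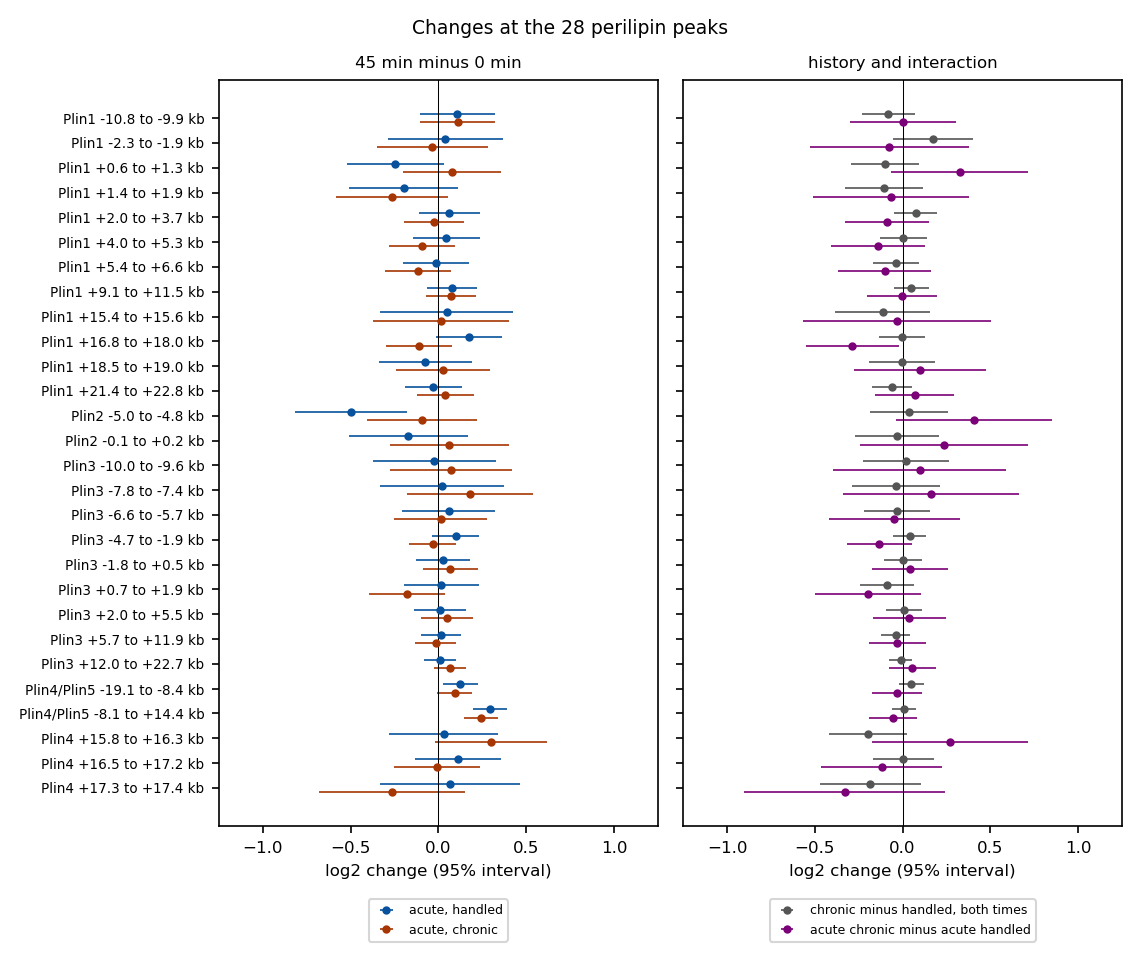
Log2 changes with 95% intervals (x axis) at the 28 perilipin peaks (rows, named by gene and by distance in kb from the start site), for the acute change in each history on the left and for history and interaction on the right. The wide Plin4/Plin5 peak stands at 0.29 and 0.24 on the left and at 0.01 and −0.05 on the right.

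Females and males were compared over the 4 groups, and no perilipin peak was called. edgeR and DESeq2 each called 0 of the 28 peaks, against 0.035% of all peaks by edgeR, and 1 had an unadjusted p under 0.05 against 5.37% of all. That peak, upstream of Plin2 (chr4:86674831-86675093), had a lowest, median and highest value of 0.730, 0.984 and 1.49 CPM in 15 females and 0.456, 0.808 and 1.29 CPM in 15 males. Its mean was 1.04 ± 0.21 CPM in females and 0.777 ± 0.24 CPM in males (SD), and the ranges overlapped. The log2 difference was 0.41 ± 0.11 (SE; 95% interval 0.19 to 0.64, unadjusted p = 0.000348, adjusted p = 0.401, edgeR). At the wide Plin4 and Plin5 peak the sex difference was 0.02 (−0.05 to 0.09, adjusted p = 0.982). The acute change in females minus that in males was 0.02 there (−0.12 to 0.16, adjusted p = 1.00). Without animal 45 these were 0.03 and −0.0089, neither of them called. For this difference edgeR called 0 of 28 perilipin peaks, none had an unadjusted p under 0.05 (3.72% of all peaks), and 0.000389% of all peaks were called; DESeq2 was not run for it.

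The wide peak was set beside others of its kind. Of 1522 peaks of 10 kb or more, 4 were called as risen in the averaged acute comparison (0.263%). The median change of the 1522 was 0.02, and 0 exceeded the change of the Plin4 and Plin5 peak. Because the family was chosen by this change, the rank of the peak only restates the choice. Within 100 kb of it lay 56 other peaks, of which 0 were called by edgeR or DESeq2 (edgeR: 0.116% of all peaks) and 4 had an unadjusted p under 0.05, which is 7.14% beside 7.17% of all peaks. Their changes ran from −0.15 to 0.24 with a median of 0.04, and 43 (76.8%) were positive. The positive share was 48.98% of all peaks and 74.0% of the 1522 peaks of 10 kb or more.

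**Figure D4:**
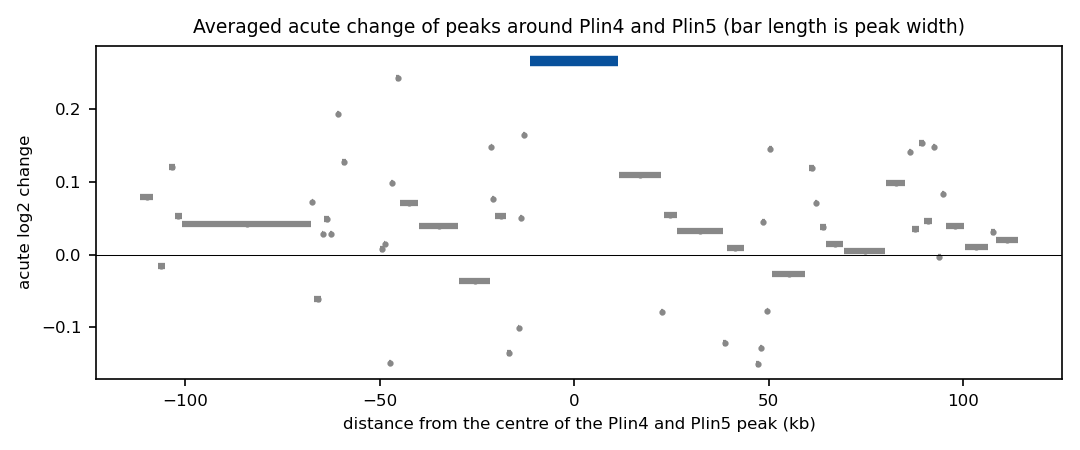
Averaged acute log2 change (y axis) of the peaks within 100 kb of the wide peak, by distance from its centre in kb (x axis), with bar length showing peak width. The wide peak, in blue at 0.27, lies above all 56 others, which run from −0.15 to 0.24. The family was chosen by this change, so its place above the others follows from the choice.

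Over the 30 libraries, with batch and sex removed, the peaks most like the wide peak lay near Lrrc8a, a volume-regulated anion channel gene (r = 0.89), Parg, which encodes poly(ADP-ribose) glycohydrolase (0.89), Dnajb12, a co-chaperone gene (0.85), Ttyh1, a tweety-family gene (0.84), and Cd101, an immunoglobulin-superfamily gene (0.83). These were the highest of 149442 peaks compared, taking at most 1 peak for each nearest gene. Over all of them the median r was 0.0035 and the 95th percentile 0.38. The groups were part of this likeness, so a shared acute direction follows from the choice, and the acute log2 changes of the 5 lay between 0.17 and 0.84. With the 4 groups also removed r was 0.61, 0.62, 0.62, 0.58 and 0.45, where the median over all peaks compared was −0.01 and the 95th percentile 0.37. The 5 peaks were picked by an r that includes this remainder, so these values follow in part from the choice as well. Among the perilipin peaks the one upstream of Plin5 was most like it (r = 0.72, and 0.52 with groups removed). These values are descriptions over 30 libraries, with depth removed only by the scaling to CPM.

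The other genes of droplet metabolism were followed through 4 lists with 38 genes, of which 37 had peaks in the same window, 502 peaks in all. None of these peaks was called as risen or fallen in the averaged acute comparison, for history or for the interaction (edgeR, adjusted over all peaks). The share called over all peaks was 0.116% in the acute comparison, 0% for history and 0% for the interaction. An unadjusted p under 0.05 was found for 26 in the acute comparison (5.18%, beside 7.17% of all peaks), 18 for history (3.59%, beside 5.44%) and 15 for the interaction (2.99%, beside 3.03%). DESeq2 called 1 in the acute comparison, near Fitm2, where it called 438 of all 257143 peaks. For history and for the interaction it called 0, and its shares over all peaks are not given here. In the acute comparison 285 of the 502 were positive (56.8%, beside 48.98% of all peaks), and their median change was 0.01, beside −0.0025 over all peaks. The values below are for the first 2 genes of each list that had a peak over their start. Dgat1, Dgat2, Gpat4 and Cidea, among others, had no start entry among those used here, so a start peak could not be looked up. Values are means of handled mice at 0 and 45 min and then of chronically restrained mice at 0 and 45 min (SD). They are not divided by peak width, so levels of different genes cannot be compared by them. The averaged acute change and its adjusted p by edgeR stand beside them.

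Among lipases and their regulators (8 genes, 111 peaks) the median change was 0.0011. The start peak of Pnpla2, which encodes the main triglyceride lipase, was 56669 bp wide. Its counts need not belong to Pnpla2 alone, and other genes under it were not looked up. It had 343 ± 16, 354 ± 14, 342 ± 12 and 352 ± 8.2 CPM (change 0.04, adjusted p = 0.803). The start peak of Abhd5, the coactivator of that lipase, was 2108 bp wide. It had 17.1 ± 3.2, 15.8 ± 2.0, 16.5 ± 1.3 and 15.4 ± 1.9 CPM (change −0.10, adjusted p = 0.818). Both genes had overlapping spreads in all groups. For triglyceride and sterol ester synthesis (10 genes, 194 peaks) the median change was 0.01. Gpat3, a glycerol-phosphate acyltransferase gene, had 2.90 ± 0.62, 3.02 ± 0.48, 3.00 ± 0.43 and 2.78 ± 0.21 CPM at its start (change −0.0092, adjusted p = 0.993). Agpat2, which encodes the next acyltransferase, had 7.16 ± 0.78, 7.86 ± 0.25, 7.49 ± 0.84 and 7.24 ± 0.41 CPM (change 0.04, adjusted p = 0.950), higher at 45 min in handled mice and lower at 45 min in chronically restrained mice by less than the spread at 0 min.

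Droplet assembly and other droplet proteins (10 genes, 99 peaks) had a median change of 0.03, with 67 positive. Cideb, a gene of the family that fuses droplets, had 5.77 ± 0.60, 5.91 ± 0.73, 5.95 ± 0.49 and 5.63 ± 0.57 CPM at its start (change −0.01, adjusted p = 0.987). Cidec, which enlarges the droplets of adipocytes, had 3.58 ± 0.70, 3.29 ± 0.38, 3.49 ± 0.47 and 3.65 ± 0.53 CPM (change −0.04, adjusted p = 0.968). The peak that DESeq2 called, named after its values were seen, lay near Fitm2, a droplet-budding protein gene (chr2:163466720-163467253). It averaged 1.24 ± 0.11, 1.57 ± 0.32, 1.24 ± 0.12 and 1.72 ± 0.36 CPM (change 0.38, adjusted p = 0.0354 by DESeq2 and 0.0868 by edgeR). Uptake, carrier and transcription factor genes (10 genes, 98 peaks in 9 of them, with none at Cd36) had a median change of 0.01. Fabp7, the fatty acid carrier gene of brain, had 2.32 ± 0.42, 2.00 ± 0.34, 2.29 ± 0.26 and 2.23 ± 0.54 CPM at its start (change −0.10, adjusted p = 0.891). Ppara, a nuclear receptor gene of fatty acid oxidation, had 9.25 ± 1.1, 9.35 ± 1.3, 9.28 ± 1.3 and 9.40 ± 1.2 CPM (change 0.0022, adjusted p = 0.998). Over the 28 listed genes with a start peak the averaged change ran from −0.10 to 0.12. Of these edgeR called none (smallest adjusted p = 0.572), beside 0.116% of all peaks.

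**Figure D5:**
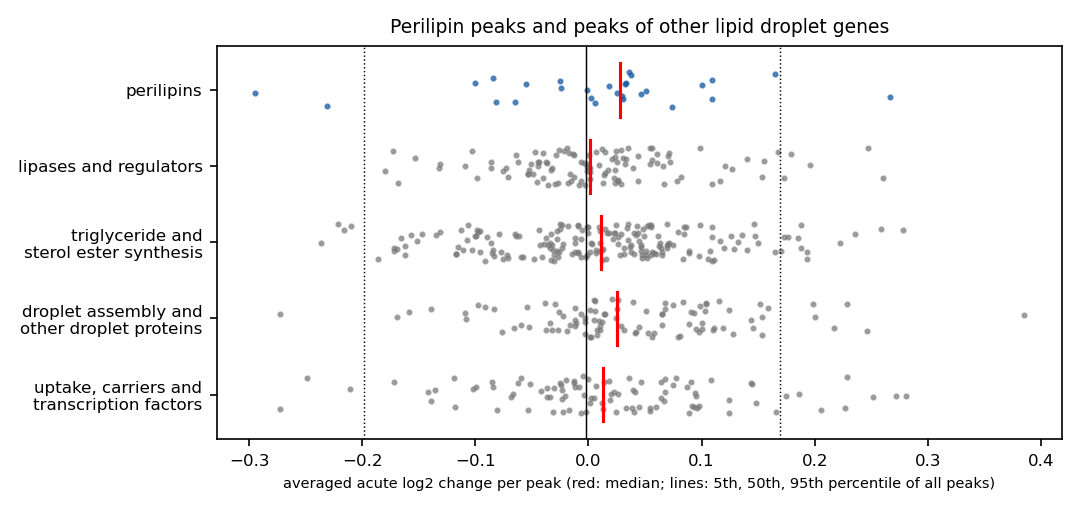
Averaged acute log2 change (x axis) of each perilipin peak and of each peak of the 4 lists (rows), with red bars at the medians and lines at the 5th, 50th and 95th percentile of all peaks (−0.20, −0.0025 and 0.17). The perilipin median is 0.028 and the list medians run from 0.0011 to 0.03.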

How the data were processed

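Bulk ATAC-seq counts of 30 mouse ventral hippocampus libraries were analysed. The deposited table held whole-number counts, not normalized, for 257149 regions shared by all libraries, and per the submitters' processing notes Trimmomatic, Bowtie2, Picard and Genrich 0.6.1 were used with the genome build GRCm38. How regions were merged, what was counted per region and whether insertions were shifted are not given in the sources used here. The table had 32 count columns, of which 2 matched no sample and were not used.

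The 5 perilipins, the gene lists and the comparisons were chosen with earlier results of these data known. Peaks were joined to RefSeq genes and start sites on GRCm38, and promoter sequences were matched by symbol for 5 of 5 members. Named with values were, for each member, the peak over or nearest its start, the peak with the most counts, the peak with the smallest unadjusted p in the averaged acute comparison and in any tested comparison where that p was below 0.01, and every called peak, together with the 5 most alike peaks elsewhere and the start peaks of the first 2 genes of each list that had one.

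Counts were tested with edgeR 4.0.16 (limma 3.58.1, R 4.3.3) by the quasi-likelihood F-test after TMM scaling and filterByExpr, which removed 6 peaks. All 28 perilipin peaks were tested. The model held the 4 groups, sex and batch, or the 8 combinations of group and sex with batch for the difference of acute changes between sexes. P-values were adjusted by Benjamini-Hochberg over all 257143 tested peaks, with calls made below 0.05. An adjusted p is from edgeR unless its sentence names DESeq2. Likeness was Pearson's r on log2 CPM with a prior count of 2, over peaks with a mean count of at least 50 and more than 1 Mb from every member.

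Each library came from a separate mouse, and intervals cover the spread between these mice. Alternatives were DESeq2 1.42.0, other scalings, no filter, no batch term, leaving out animal 45 or each batch, each sex alone, a covariate for how much of each library lay in the top 1% of peaks by coverage, and windows of 0 and 50 kb.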

Additional observations from a re-analysis of the deposited data

Results flagged for a closer look

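Within groups, 112 sets of libraries were examined for a single value far from the rest by Dixon's criterion, and 4 stood out, where chance gives about 1 in 20. At the Plin1 peak chr7:79729117-79730731 the library of animal 5 was lowest among chronically restrained mice at 45 min, at 4.27 CPM with the nearest at 5.62. At the Kif7 peak of the Plin1 window (chr7:79709988-79711379) the library of animal 45 was highest among handled mice at 0 min, at 14.1 CPM with the nearest at 10.7. At a Plin3-window peak over Arrdc5 (chr17:56300109-56300511) the library of animal 8 was highest among handled mice at 0 min, at 1.68 CPM with the nearest at 1.09. At the Plin3 peak chr17:56278573-56284837 the library of animal 49 was highest in that group, at 27.9 CPM with the nearest at 24.7. The wide Plin4 and Plin5 peak had no such library. The cause was not tested.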

How the results depend on the processing

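The averaged acute change of the wide Plin4 and Plin5 peak lay between 0.20 and 0.32 on the log2 scale over 17 alternatives, that in handled mice between 0.26 and 0.32 and that in chronically restrained mice between 0.18 and 0.29 over 13 each. The family was chosen by this change, so these values and the acute calls below are a description. Of the perilipin peaks 1 was called in the averaged comparison under 14 alternatives, and 2 were called with a covariate for how much of each library lay in the top 1% of peaks by coverage. In handled mice 0 were called without batch 1, without batch 2, without batch 3, in females only and in males only. In chronically restrained mice 1 was called without animal 45, without batch 4, with that covariate and by DESeq2. The cause of these changes was not tested, and the fits that leave libraries out rest on fewer of them. Within each history, the share of all peaks called under each alternative is not given here. These counts alone therefore cannot tell a change at the perilipin peaks from a change in calling over all peaks. Without the block by batch the averaged count was 1, and the change of the wide peak 0.28. No paired analysis by animal was possible because the groups share no replicate number. At the wide peak the interaction ran from −0.13 to 0.0064, history averaged over times from −0.01 to 0.04 and the sex difference from −0.0026 to 0.04, and no perilipin peak was called for these, for history at either time or for the difference of acute changes between sexes under any alternative run. Over all peaks the averaged acute count was 299, and 525 with library totals, 681 without animal 45, 105 in males alone, 20 in females alone, 40 and 140 with batch 2 or batch 3 left out, and 1766 with the covariate, of which 500 rose against 188 of 299. It was 438 by DESeq2. The window of 0 kb held 12 peaks and that of 50 kb 93. Depth limited the Plin2 peaks, with mean counts of 36.73 and 35.77. Levels of Plin4 and Plin5 could not be separated, and no RNA was measured.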
